A study of Homo sapiens with 6 samples.

Results

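The comparison described here set forebrain neuron progenitor cells that expressed the hairpin shRNA2 against circRTN4(2,3) beside cells that expressed a scrambled hairpin. The cells came from H9, an established line of human embryonic stem cells, and were taken at day 26. There were 2 libraries for shRNA2 and 2 for scramble. A second hairpin against the same circular RNA, shRNA1, gave 2 further libraries that shared the scramble controls. All 3 groups had the same cells, day and RNA preparation, and differed in the hairpin. The labels state the question as the function of circRTN4(2,3). Whether the replicates were separate cultures, and how the hairpins were delivered, is not stated there. P-values therefore reflect the variation of these libraries, part of which can be technical. Genes were included if their mean over the 4 libraries was at least 1 FPKM (fragments per kilobase of a gene, scaled to the library total). This rule kept 18119 of 59151 genes, 30.6%. The lowest included gene had a mean of 1.0001 FPKM and the highest excluded gene 0.9999 FPKM. Of the included genes, 10324 were protein-coding, 945 long noncoding, 590 miRNA, 369 snoRNA, 1129 pseudogenes and 205 other RNA genes. Classes came from RefSeq, or from GENCODE where RefSeq gave none, and 4557 symbols had no match in either.

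Circular RNAs form when the spliceosome joins the end of an exon to the start of an exon further upstream. They lack free ends and share nearly all of their sequence with the linear RNA of the same gene, so hairpins against them are usually placed on the back-splice junction. The RNA was depleted of ribosomal RNA and not selected for poly(A) tails, so reads from circular and linear RNA of a gene, and from unspliced RNA, all add to its FPKM. At day 26 of forebrain differentiation such cultures hold dividing neural progenitors beside young neurons. The dorsal midline of the developing forebrain, which includes the cortical hem and the choroid plexus, sends out Wnt ligands and their R-spondin amplifiers.

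Scramble replicate 1 was the shallowest library, at 46600000 reads as recovered from the values, against 77200000 in scramble replicate 2 and 83600000 and 79900000 in the shRNA2 libraries. It also held the most residual ribosomal RNA. MT-RNR1, the small mitochondrial ribosomal RNA, stood at 405 and 42.5 FPKM in scramble, 118 and 27.3 FPKM under shRNA1 and 7.81 and 6.68 FPKM under shRNA2. RNA18S5, the cytosolic small subunit ribosomal RNA, stood at 722 and 99.4 FPKM in scramble and 28.2 and 21.8 FPKM with shRNA2. The scramble libraries differed from each other more than the hairpin libraries did, and the median SD over genes on the log2 scale was 0.109 in scramble against 0.0357 and 0.0453 in the shRNA1 and shRNA2 groups. The part of residual ribosomal RNA in the gene differences was not tested. Markers of the labelled cells were present: the progenitor factor SOX2 stood at 32.7 and 31 FPKM in scramble and 32 and 31.8 FPKM with shRNA2, and DCX, a gene of young neurons, at 118 and 112 FPKM and 94.9 and 96.4 FPKM. The midbrain factor EN1 was at 0 in all 4 libraries, and the astrocyte genes GFAP and AQP4 and the endothelial gene PECAM1 stayed under 0.1 FPKM.

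RTN4, the host gene of the circular RNA, encodes reticulon 4, also called Nogo, a membrane protein that shapes the endoplasmic reticulum and limits axon growth. It lies on chromosome 2 from 54972189 to 55137831 (GRCh38.p14). Its level was 40.3 and 38.5 FPKM in scramble and 31.2 and 31.3 FPKM with shRNA2. Both shRNA2 values lay below both scramble values, as they did for 34.4% of all tested genes. The log2 fold change of -0.32 ± 0.051 (SE) did not pass the threshold in the fit of all 6 libraries (limma with Benjamini-Hochberg adjustment, adjusted p = 0.0755). Its log2 fold change was -0.292 without scramble replicate 1 and -0.357 without scramble replicate 2. Without shRNA2 replicate 1 it was -0.323 and without shRNA2 replicate 2 it was -0.326. A group left with 1 library shows no spread of its own, so no p-value is given for these fits. RTN4 also did not pass in the 4 libraries alone (adjusted p = 0.286), and after quantile normalization its log2 fold change was -0.112 (adjusted p = 0.578). With shRNA1 it was at 34.2 and 34.7 FPKM, above shRNA2, and the difference between the hairpins, -0.14 on the log2 scale, did not pass (adjusted p = 0.0587 among the hairpin libraries). How far the circular RNA itself was depleted was not measured. None of the 10 tested genes for reticulons, Nogo receptors and their partners passed, and none of 17 tested endoplasmic reticulum shaping genes. These lists do not hold RTN4 itself. The closest in them were REEP1, an endoplasmic reticulum shaping protein, at -0.29 (adjusted p = 0.0843), and BACE1, a reticulon-bound protease, at -0.18 (adjusted p = 0.16). PABPC1, a poly(A)-binding protein, was at 46.1 and 43.5 FPKM in scramble and 38.9 and 37.2 FPKM with shRNA2, a log2 fold change of -0.23 ± 0.058 (SE) that did not pass (adjusted p = 0.149). None of 30 tested factors of circular RNA formation, export and decay passed.

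With shRNA2, 113 of 18119 genes passed the threshold of an adjusted p under 0.05, which is 0.624% of those tested. Of these, 79 (0.436%) were lower and 34 (0.188%) higher than in scramble. Counts of calls within gene lists, given below, stand against these shares. The lists were chosen with earlier results of these data known. All 113 had both shRNA2 libraries outside the range of the scramble libraries, as had 47.8% of all genes tested (34.4% lower and 13.3% higher). The calls were close to the threshold: their adjusted p-values had a median of 0.0476, and 95 of 113 were above 0.03. They rested on the spread shared with the shRNA1 libraries. A fit of the 4 libraries alone kept 1 call (0.00552%), TTR (adjusted p = 0.0321), and gave the other called genes adjusted p-values from 0.0809 to 0.246. Weighting each group by its own spread, an alternative added after the data were seen, kept 5 (0.0276%: BCL11B, COL3A1, CRABP1, EEF1A1 and the clone-named gene AC002480.6). Further fits left out 1 library each, and the group left with 1 library then showed no spread of its own. Without a scramble library the spread came from the hairpin libraries alone, which lay closer together. Counts of calls from the fits that left out a library are therefore not given. In each of these fits the fold changes of the 113 genes kept their direction. An unadjusted p under 0.05 was reached by 3495 genes (19.3%) in the fit of all 6.

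Log2 fold changes were taken on log2(FPKM + 1), so the change of a low gene is understated. They had a median of -0.064 over all tested genes and -0.091 over protein-coding genes, and 67.7% of genes were below 0. Lower calls outnumbered higher calls among protein-coding genes, 65 against 16 (0.63% and 0.155% of 10324). This split depended on scaling: scaling by the median of ratios gave 46 higher and 48 lower over all genes, and quantile normalization gave 38 and 37. The median for protein-coding genes was lower at higher expression, from -0.063 at 1 to 3 FPKM to -0.102, -0.158 and, at 30 FPKM or more, -0.201.

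**Figure D1:**
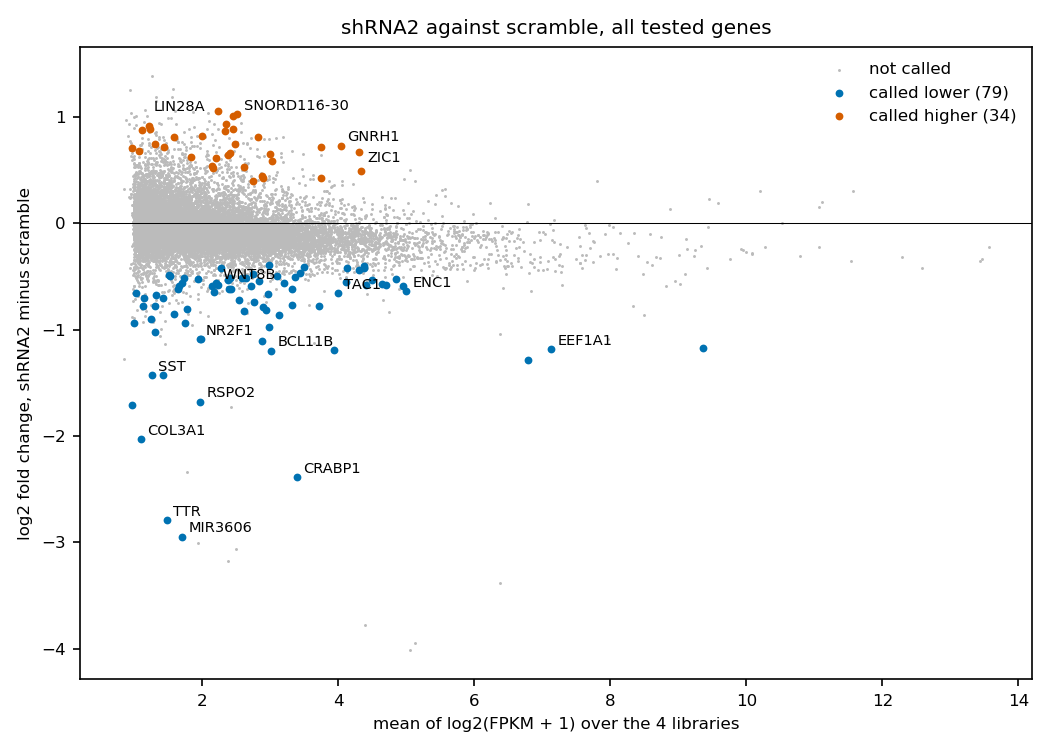
Log2 fold change (shRNA2 minus scramble) of each tested gene against its mean log2(FPKM + 1) over the 4 libraries, with called genes in colour. The 79 lower calls reach -2.95 at MIR3606, and the 34 higher calls reach 1.05 at LIN28A; the grey points below -3 include MT-RNR1 and RNA18S5, which differed between the scramble libraries and did not pass.

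On the log2(FPKM + 1) scale, TTR, CRABP1, COL3A1 and RSPO2 had the largest falls among called protein-coding genes. TTR encodes transthyretin, the thyroid hormone carrier secreted by choroid plexus epithelium. Its level was 6.03 and 6.63 FPKM in scramble, 0.497 and 0.785 FPKM with shRNA1, then 0.0577 and 0.0632 FPKM with shRNA2, a log2 fold change of -2.79 ± 0.1 (SE) with shRNA2 (adjusted p = 0.00879). These shRNA2 values stand for about 12 reads in each library. COL3A1, a fibrillar collagen of mesenchymal cells, was at 3.16 and 3.49 FPKM in scramble, 0.538 and 0.476 FPKM under shRNA1 and 0.079 and 0.0459 FPKM under shRNA2 (log2 fold change -2.02 ± 0.076, adjusted p = 0.00879). For both genes the 3 groups stood in the same order with no overlap: scramble highest, shRNA2 lowest. CRABP1, a cytosolic retinoic acid binding protein, was at 19.4 and 27 FPKM in scramble and 3.72 and 3.42 FPKM with shRNA2 (-2.39 ± 0.15, adjusted p = 0.0232). With shRNA1 it was at 3.67 and 3.69 FPKM, within the range of the shRNA2 libraries.

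R-spondins amplify Wnt signals by keeping Wnt receptors on the cell surface. RSPO2 was at 5.79 and 6.17 FPKM in scramble and 1.34 and 1.03 FPKM with shRNA2 (log2 fold change -1.68 ± 0.091, adjusted p = 0.0177). RSPO3 fell by 0.78 on the log2 scale (adjusted p = 0.0405). The hem ligand WNT8B was at 4.55 and 4.68 FPKM in scramble, 2.77 and 2.83 FPKM with shRNA2 and 1.53 FPKM in both shRNA1 libraries, so that it was lowest with shRNA1. WLS, which carries Wnt ligands to the cell surface, fell by 0.67 (adjusted p = 0.0456), and the Wnt antagonist SFRP2 fell by 0.78 (adjusted p = 0.0476). In the opposite direction, FRZB, another secreted Wnt antagonist, rose from 2.78 and 2.92 FPKM to 7.32 and 6.21 FPKM (1.01 ± 0.084, adjusted p = 0.036). Of 22 tested Wnt receptors, antagonists and targets, 2 were called lower and 1 higher, with a median of -0.131. LEF1, a nuclear mediator of Wnt signalling, had a log2 fold change of -0.33 and did not pass (adjusted p = 0.0799).

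Among 12 tested cortical hem and roof plate genes of a list of 24, 3 were called lower (RSPO2, RSPO3 and WNT8B) and 3 higher, with ZIC1 and ZIC4 among the latter. LMX1A, a defining factor of the hem, stayed below the filter, at 1.2 and 1.37 FPKM in scramble, 0.398 and 0.408 FPKM under shRNA1 and 0.419 and 0.453 FPKM under shRNA2. For choroid plexus, 4 of 15 markers were tested and TTR alone was called. The summed level of the other 14 was 24.7 and 29.1 FPKM in scramble and 27 and 26.3 FPKM with shRNA2, which overlap. Most of that sum was OTX2 and IGFBP2. IGFBP2 was at 7.22 and 10.9 FPKM in scramble and 7.92 and 6.76 FPKM with shRNA2. Of the 14, 11 lay below the filter. In both shRNA2 libraries 10 of the 14 were lower, as were 34.4% of tested genes and 16% of the 39125 genes below the filter with a value above 0. Higher in both were 2 of the 14, against 13.3% and 17.7%. The epithelial markers CLIC6 and FOLR1 were under 0.3 FPKM in every library and lower in both shRNA2 libraries. CLIC6 was at 0.267 and 0.235 FPKM in scramble, 0.11 and 0.101 FPKM under shRNA1 and 0.119 and 0.176 FPKM under shRNA2. FOLR1 was at 0.103 and 0.0856 FPKM in scramble, 0.00729 and 0.0153 FPKM under shRNA1 and 0.0215 and 0.0451 FPKM under shRNA2. OTX2, a transcription factor of choroid plexus and other forebrain cells, was at 11.2 and 11.8 FPKM in scramble and 14.1 and 14.7 FPKM with shRNA2 (0.30, adjusted p = 0.0848).

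COL3A1 is also the 1 tested gene of 18 meningeal and mesenchymal markers. The other 17 lay below the filter, and 12 of them were lower in both shRNA2 libraries, as were 16% of the genes below the filter. Their summed level was 5.28 and 5.79 FPKM in scramble, 2.42 and 2.63 FPKM under shRNA1 and 3.11 and 2.6 FPKM under shRNA2. COL1A2 was at 0.827 and 0.979 FPKM in scramble and 0.14 and 0.135 FPKM with shRNA2, and LUM, a proteoglycan of connective tissue, at 0.702 and 0.614 FPKM and 0.0914 and 0.0499 FPKM. The part of mesenchymal cells in the fall of COL3A1 was not tested. In bulk RNA, fewer cells of a type and less RNA per cell cannot be told apart, here or in the groups that follow. Of 21 tested extracellular matrix genes COL3A1 was the 1 called; SPARC, a matrix glycoprotein, was at -0.50 (adjusted p = 0.0502), and COL5A2, another fibrillar collagen, at 0.42 (adjusted p = 0.0692). SULF1, which trims heparan sulfate, fell by 1.02 (adjusted p = 0.036).

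**Figure D2:**
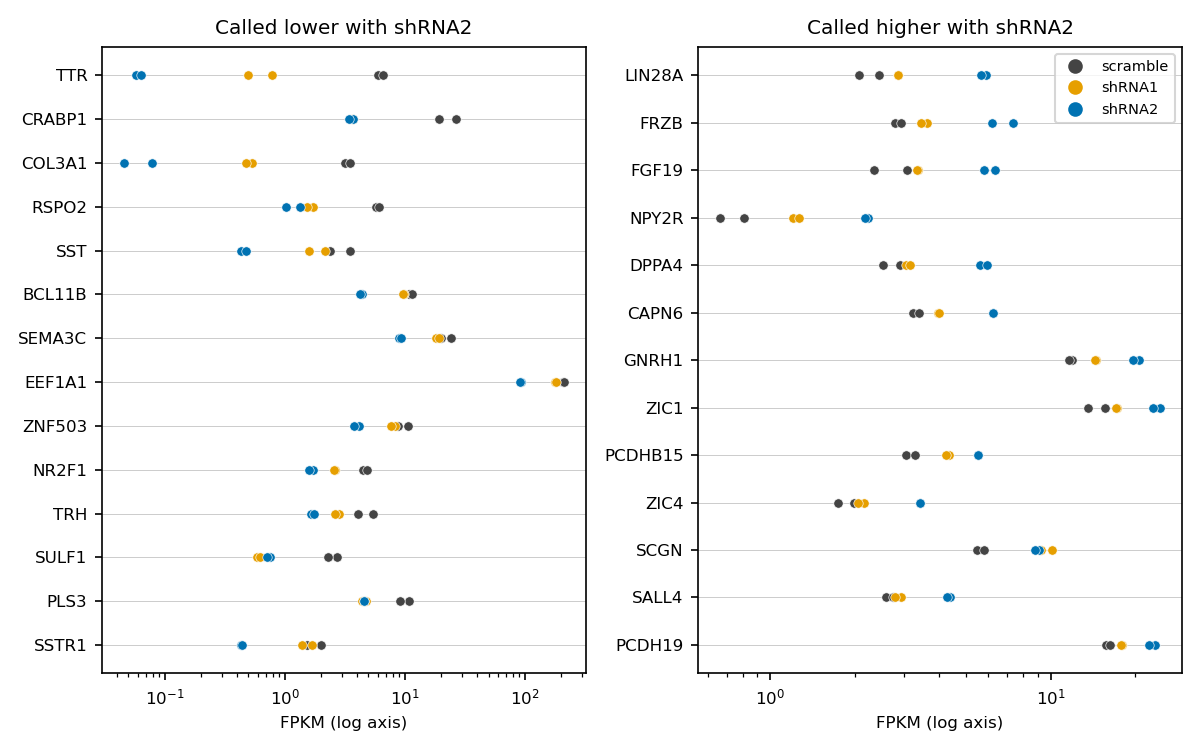
FPKM on a log axis for the named protein-coding genes with the largest called changes in each direction; each point is 1 library, coloured by group. The rule that chose these genes required both shRNA2 points to lie outside the scramble points. The shRNA1 points lie near shRNA2 for CRABP1, SULF1, PLS3 and SCGN and near scramble for BCL11B and SST.

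Regional and progenitor genes changed in part. NR2F1, an orphan nuclear receptor that patterns the cortex, was at 4.52 and 4.84 FPKM in scramble and 1.72 and 1.61 FPKM with shRNA2 (-1.09 ± 0.06, adjusted p = 0.0177). Its relative NR2F2 fell by 0.89 (adjusted p = 0.0361). They were the 2 calls among 14 tested forebrain patterning factors, a list whose median was -0.021, and 0.061 and 0.116 with median of ratios scaling and quantile normalization. Of 26 tested progenitor and radial glia markers, GJA1 and FGFR2 were called, both lower. GJA1, the gap junction protein connexin 43, was at 11.1 and 10.4 FPKM in scramble, 5.4 and 5.59 FPKM with shRNA2 and 3.86 FPKM in both shRNA1 libraries. FGFR2, a receptor of fibroblast growth factors, fell by 0.74 (adjusted p = 0.0232), and FGFR3 was at -0.63 without passing (adjusted p = 0.0656). The Notch target HEY1 fell by 0.59 (adjusted p = 0.0476), the 1 call among 19 Notch pathway genes. HES1, another Notch target, was at -0.36 (adjusted p = 0.1). No gene was called among 41 of DNA replication and the cell cycle, whose median of -0.052 turned to 0.017 with median of ratios scaling and 0.046 with quantile normalization; CCND2 (cyclin D2) was at -0.33 (adjusted p = 0.065). MEIS1 and PBX3, homeodomain factors chosen after their values were seen, fell by 0.65 and 0.53 (adjusted p = 0.036 and 0.0476).

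Several genes of differentiating neurons were lower with shRNA2 and near scramble with shRNA1. BCL11B, also called CTIP2, a zinc finger factor of deep-layer projection neurons and of striatal neurons, lies on chromosome 14 from 99169287 to 99272197. It was at 10.9 and 11.5 FPKM in scramble, 9.8 and 9.68 FPKM under shRNA1 and 4.42 and 4.21 FPKM under shRNA2. Its log2 fold change was -1.20 ± 0.053 (SE) with shRNA2 (adjusted p = 0.0139) and -0.18 with shRNA1 (adjusted p = 0.44). It was the 1 call among 18 tested deep-layer and projection neuron markers, whose median was -0.148. Unlike BCL11B, RORB and NFIA had negative values with both hairpins. RORB, a layer factor, was at -0.58 with shRNA2 (adjusted p = 0.0655) and -0.39 with shRNA1. NFIA was at -0.50 with shRNA2 (adjusted p = 0.0628) and -0.47 with shRNA1. EBF1, a factor of early-born neurons, was at 3.11 and 2.95 FPKM in scramble and 1.23 and 1.24 FPKM with shRNA2 (-0.85, adjusted p = 0.0232). RELN, the secreted guide of cortical layering, was at 8.01 and 8.09 FPKM in scramble, 9.35 and 9.33 FPKM under shRNA1 and 5.96 and 5.86 FPKM under shRNA2 (-0.39, adjusted p just under the threshold). EBF1 and RELN were the 2 calls among 5 tested Cajal-Retzius markers. EBF1 was also listed with the ventral forebrain and interneuron markers. There SST and EBF1 were the calls among 18 tested, both lower, with a median of -0.157. No gene was called among 26 pan-neuronal markers, whose median was -0.118 but 0.033 after quantile normalization: DCX had a log2 fold change of -0.26 (adjusted p = 0.132), and STMN2 was at 103 and 99.4 FPKM in scramble and 96.8 and 98.7 FPKM with shRNA2. None of 10 intermediate progenitor and newborn neuron markers passed either; NEUROG2, a proneural factor, was at -0.47 (adjusted p = 0.0732).

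Axon guidance held 8 calls among 35 tested genes, 6 lower and 2 higher, against 0.436% lower and 0.188% higher of all tested genes. The list median was -0.078, and 0.002 with median of ratios scaling. SEMA3C, a secreted semaphorin, was at 24.4 and 20.1 FPKM in scramble, 18.3 and 19.2 FPKM under shRNA1 and 9.02 and 9.38 FPKM under shRNA2 (-1.19 ± 0.097, adjusted p = 0.036). SEMA3A fell by 0.81 and PLXNA2, a plexin that transmits semaphorin signals, by 0.72 (adjusted p = 0.0488 and 0.0476). The repellent SLIT2 and its receptor ROBO2 fell by 0.52 and 0.51, and the ephrin receptor EPHA3 by 0.77 (adjusted p = 0.0476, 0.0493 and 0.0476). NRP1, the semaphorin co-receptor, rose from 5.38 and 5.25 FPKM to 7.59 and 7.62 FPKM, and the ephrin EFNA5 from 4.84 and 4.78 FPKM to 6.64 and 6.69 FPKM. SEMA3A, ROBO2, NRP1 and EFNA5 were chosen after their values were seen, as the remaining calls of this list.

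The list of neuropeptide and hormone genes held 3 lower and 2 higher calls among 9 tested of 24. Of all tested genes, 0.436% were called lower and 0.188% higher. The list also holds SCGN, which is not a peptide or hormone. SST encodes somatostatin, the peptide of a class of interneurons. It was at 2.41 and 3.48 FPKM in scramble, 2.15 and 1.59 FPKM under shRNA1 and 0.435 and 0.475 FPKM under shRNA2 (-1.43 ± 0.16, adjusted p = 0.0493). SSTR1, a somatostatin receptor, fell by 0.94. TRH, thyrotropin-releasing hormone, went from 4.1 and 5.44 FPKM to 1.65 and 1.75 FPKM (-1.09, adjusted p = 0.0493), and TAC1, the precursor of substance P, from 19.7 and 18.2 FPKM to 11.6 and 11.7 FPKM (-0.65, adjusted p = 0.0367). Higher were GNRH1, gonadotropin-releasing hormone, from 11.9 and 11.6 FPKM to 20.7 and 19.7 FPKM (0.73 ± 0.049, adjusted p = 0.0232), and SCGN, the calcium binding protein secretagogin, from 5.45 and 5.78 FPKM to 9.08 and 8.8 FPKM (0.59, adjusted p = 0.0493). NPY2R, a neuropeptide Y receptor, was the highest call by ratio of means among the named protein-coding genes, at 0.663 and 0.804 FPKM in scramble and 2.23 and 2.18 FPKM with shRNA2, a 3.0-fold difference.

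In the synaptic lists 1 gene passed. SYT4, a synaptotagmin of dense-core and secretory vesicles, was at 9.32 and 8.24 FPKM in scramble, 9.28 and 9.31 FPKM under shRNA1 and 4.58 and 4.72 FPKM under shRNA2 (-0.79, adjusted p = 0.0361). It was the 1 call among 23 synaptic vesicle genes, with CPLX1 at -0.58 (adjusted p = 0.0589) and CPLX2 at -0.63 (adjusted p = 0.0656), both complexins. None of 23 postsynaptic and receptor genes and none of 18 voltage-gated channel genes passed. The cannabinoid receptor CNR1 and the actin-binding protein ENC1, chosen after their values were seen, fell by 0.83 and 0.64 (adjusted p = 0.0248 and 0.036). CNR1 went from 7.48 and 6.84 FPKM to 3.59 and 3.61 FPKM, with 6.66 and 6.54 FPKM in the shRNA1 libraries.

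**Figure D3:**
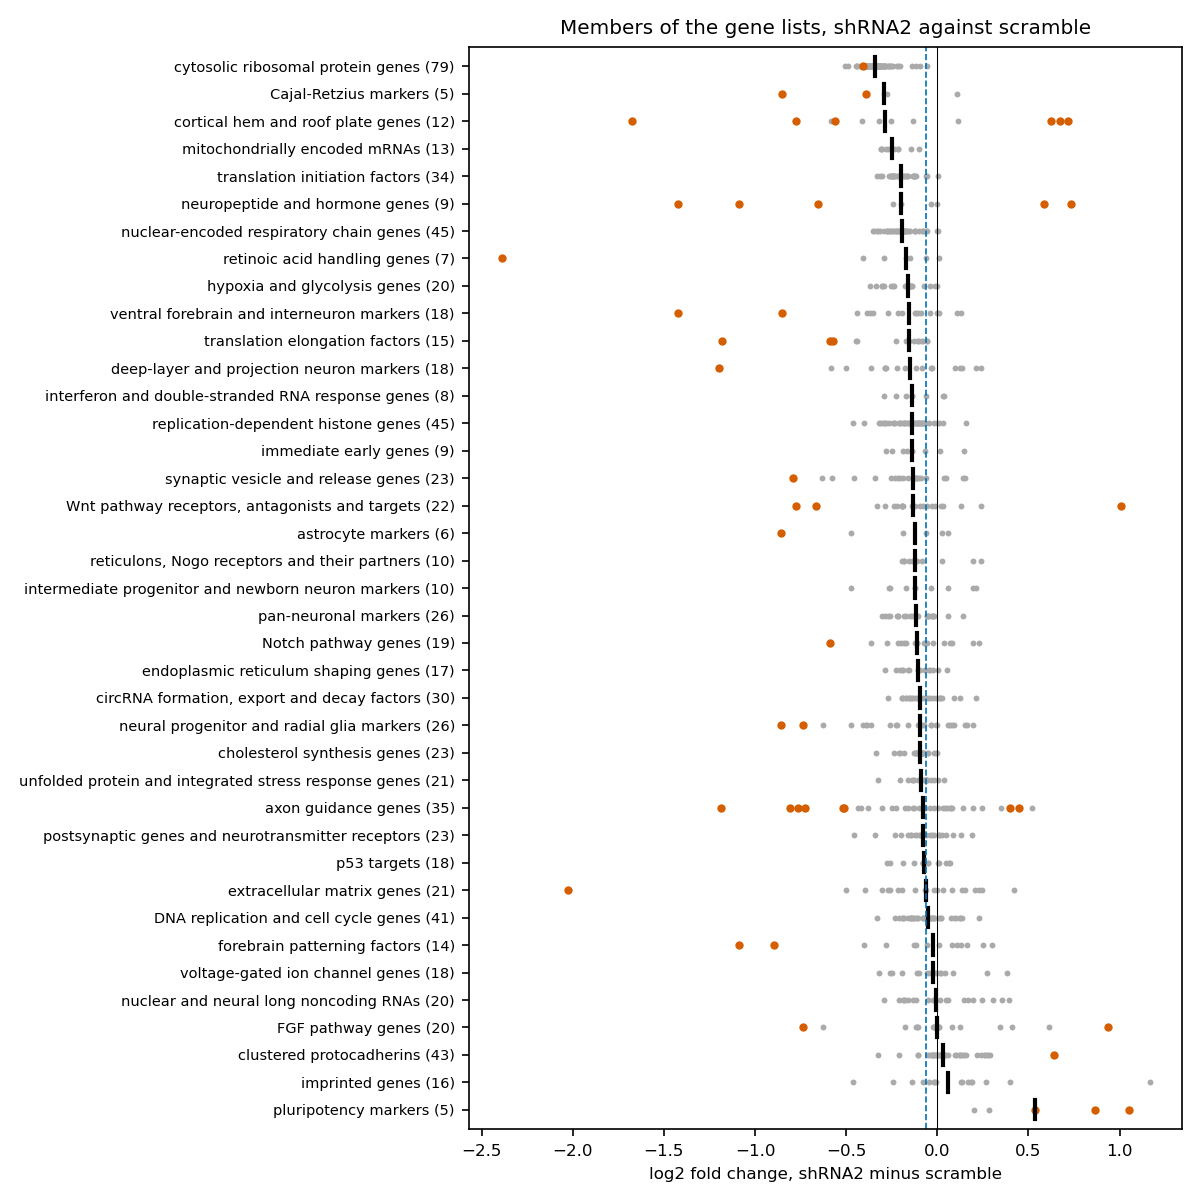
Log2 fold changes (shRNA2 minus scramble) of the tested members of each gene list with at least 5 of them; grey points did not pass, orange points did, black bars are list medians, the dashed line is the median of all tested genes, and the number tested stands in brackets. Ribosomal protein genes lie on the negative side in a narrow band around -0.339, and the pluripotency list has the highest median, 0.536.

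The most abundant protein-coding gene called was EEF1A1, whose product brings aminoacyl-tRNA to the ribosome. The starts of the elongation factor genes are shown because translation machinery RNAs often begin with a C followed by a run of pyrimidines, the 5′ terminal oligopyrimidine tract. The lines give 20 bases before and 20 from the annotated start (RefSeq, GRCh38.p14), with that tract, or the first transcribed base where there is none, in capitals. 
EEF1A1, chr6:73521013-73521052, minus strand: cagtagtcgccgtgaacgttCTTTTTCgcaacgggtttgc
EEF2, chr19:3985444-3985483, minus strand: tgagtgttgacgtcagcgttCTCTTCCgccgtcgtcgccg
EEF1B2, chr2:206159589-206159628, plus strand: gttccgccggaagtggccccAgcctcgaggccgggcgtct
EEF1G, chr11:62573872-62573911, minus strand: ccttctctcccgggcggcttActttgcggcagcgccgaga

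EEF1A1 was at 207 and 212 FPKM in scramble, 178 and 181 FPKM under shRNA1 and 92.5 and 91 FPKM under shRNA2 (-1.18 ± 0.059, adjusted p = 0.0177). Its processed pseudogene EEF1A1P5, chosen after its values were seen, carried 933 and 1055 FPKM in scramble and 435 and 444 FPKM with shRNA2 (-1.17, adjusted p = 0.039). Near-identical copies can share reads, so the split of reads between the gene and its copies is uncertain. EEF1B2 and EEF1G, subunits of the factor that reloads EEF1A1 with GTP, fell by 0.57 and 0.59 (adjusted p = 0.036 and 0.0476). Elongation factors thus held 3 lower calls among 15 tested, against 0.436% of all tested genes. All 15 fold changes were negative, as were 67.7% of all tested, with a list median of -0.153. EEF2, which moves the ribosome along the message, starts with a tract as EEF1A1 does and was at 131 and 170 FPKM in scramble and 114 and 106 FPKM with shRNA2 (-0.44), without passing (adjusted p = 0.186). EEF1B2 and EEF1G were called and have no such tract at their annotated starts. The starts used in these cells were not measured, so a tract could be missed where the annotation is off.

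Ribosomal protein genes had small negative fold changes, and 1 of 79 passed. All 79 values were negative, from -0.51 to -0.06 with a median of -0.339, and 70 had both shRNA2 libraries below both scramble libraries, against 34.4% of all genes. RPL15 was at 32.5 and 33.4 FPKM in scramble and 25.2 and 24.6 FPKM with shRNA2 and did not pass (-0.39, adjusted p = 0.0545). Initiation factors had a median of -0.201 over 34 genes, nuclear-encoded respiratory chain genes -0.195 over 45, and mitochondrially encoded mRNAs -0.248 over 13, with 0 calls in each. Medians of abundant genes as a whole were also negative, as given above by expression level, and scaling mattered: the ribosomal protein median was -0.256 with median of ratios scaling and -0.158 after quantile normalization, where that of the mitochondrially encoded mRNAs turned to 0.028. A tract of at least 5 pyrimidines led by C stood at the start of 43 of 63 ribosomal protein genes with a promoter entry (68.3%), against 4.04% of 27305 promoters. Within the list, the median fold change was -0.339 with the tract at the annotated start and -0.362 without. Over tested protein-coding genes outside the translation lists it was -0.108 with the tract (434 genes) and -0.088 without (7979 genes). The starts used in these cells were not measured. These splits therefore go by annotation alone and cannot separate RNAs that carry a tract from those that lack it.

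Higher genes were fewer and included pluripotency and midline factors. LIN28A, an RNA-binding protein of stem cells and early neural progenitors that blocks the maturation of let-7 miRNAs, lies on chromosome 1 from 26410817 to 26429728. It was at 2.08 and 2.45 FPKM in scramble, 2.86 FPKM in both shRNA1 libraries, and 5.9 and 5.63 FPKM with shRNA2 (1.05 ± 0.072, adjusted p = 0.024). DPPA4, a chromatin factor of pluripotent cells, rose from 2.91 and 2.53 FPKM to 5.6 and 5.95 FPKM (0.87, adjusted p = 0.036), and SALL4, a zinc finger factor of embryonic stem cells, from 2.59 and 2.75 FPKM to 4.37 and 4.27 FPKM (0.54, adjusted p = 0.0476). They were the 3 calls among 5 tested of 20 pluripotency markers, where 0.188% of all tested genes were called higher. DNMT3B, a DNA methyltransferase, was at 0.28 (adjusted p = 0.1), and LIN28B, the paralogue of LIN28A, at 0.20 (adjusted p = 0.271). Of the 17 uncalled members, 15 lay below the filter, and 14 of the 17 were higher in both shRNA2 libraries, as were 13.3% of tested genes and 17.7% of genes below the filter. The defining factors POU5F1 and NANOG stayed at trace levels: NANOG was at 0.00795 and 0.0024 FPKM in scramble (2 and 1 reads), 0.0113 and 0.00472 FPKM with shRNA1 (5 and 2 reads), and 0.0687 and 0.0417 FPKM with shRNA2 (31 and 18 reads). POU5F1 was at 0.0498 and 0.037 FPKM with shRNA2 and at most 0.0101 FPKM in the other libraries. L1TD1, an RNA-binding protein of pluripotent cells, was at 0.0968 and 0.026 FPKM in scramble, 0.0791 and 0.0287 FPKM under shRNA1 and 0.342 and 0.331 FPKM under shRNA2. The part of remaining undifferentiated cells in the 3 calls was not tested.

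ZIC1 and ZIC4 encode zinc finger factors of the dorsal midline and of early neural precursors. ZIC1 rose from 13.6 and 15.7 FPKM to 24.6 and 23.2 FPKM and ZIC4, its neighbour on chromosome 3, from 1.75 and 1.99 FPKM to 3.41 and 3.42 FPKM (adjusted p = 0.0493 and 0.0476). FGF19, a secreted growth factor, rose by 0.94 (adjusted p = 0.0493), from 2.35 and 3.07 FPKM to 6.33 and 5.79 FPKM, and was with FGFR2 the pair of calls among 20 FGF pathway genes. DUSP6, a feedback target of FGF signalling, was at 0.41 (adjusted p = 0.0728). CAPN6, a calpain-like protein without protease activity, rose by 0.75 (adjusted p = 0.0232). The adhesion genes PCDHB15 and PCDH19 rose by 0.64 and 0.49 (adjusted p = 0.036 and 0.0476); PCDHB15 was the 1 call among 43 clustered protocadherins, whose median was 0.034. DLK1, an imprinted Notch-like ligand, had the largest positive fold change among named protein-coding genes but did not pass: 6.81 and 9.33 FPKM in scramble and 20.4 and 18 FPKM with shRNA2 (1.17 ± 0.14, adjusted p = 0.0545). PEG10, also imprinted, was at -0.47 (adjusted p = 0.0628).

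Among the calls were 4 miRNA and 2 snoRNA loci. Libraries of this kind are not made for mature miRNAs, and reads at such loci can come from the host RNA. Mature sequences are shown for the miRNA loci called, as both arms of miR-3606 and 1 arm of each other locus; the seed (bases 2 to 8) stands in capitals (RefSeq, GRCh38.p14). No 2 of the 5 sequences share a seed. 
hsa-miR-3606-5p: uUAGUGAAggcuauuuuaauu
hsa-miR-3606-3p: aAAAUUUCuuucacuacuuag
hsa-let-7c-5p: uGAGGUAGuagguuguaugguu
hsa-miR-181a-5p: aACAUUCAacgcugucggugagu
hsa-miR-3658: uUUAAGAAaacaccauggagau

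MIR3606, at chromosome 2 from 188995630 to 188995692, lies inside COL3A1 and fell with it. It was at 8.51 and 7.61 FPKM in scramble (25 and 37 reads), 1.93 and 1.82 FPKM with shRNA1 (10 and 9 reads), and 0.38 and 0 FPKM with shRNA2 (2 and 0 reads), with an adjusted p of 0.0177. MIRLET7C was at 0.766 and 0.617 FPKM in scramble (3 and 4 reads) and 2.13 and 2.23 FPKM with shRNA2 (15 reads in each; 0.91, adjusted p = 0.0494). Its host MIR99AHG was at 0.19 (adjusted p = 0.285). MIR181A2 was at 3.12 and 3.3 FPKM in scramble (16 and 28 reads) and 5.43 and 5.91 FPKM with shRNA2 (50 and 52 reads; 0.66, adjusted p = 0.0483), while its host MIR181A2HG was at 0.13 (adjusted p = 0.399). MIR3658 fell by 0.58 (adjusted p = 0.0361) and its host UCK2 was at -0.30 (adjusted p = 0.12). SNORD116-30, a copy in the imprinted Prader-Willi snoRNA cluster, rose from 3.28 and 2.74 FPKM to 7.1 and 7.21 FPKM, with 5.93 and 5.55 FPKM in the shRNA1 libraries (1.03 ± 0.08, adjusted p = 0.036). MIRLET7C, MIR181A2 and MIR3658 were chosen after their values were seen.

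**Figure D4:**
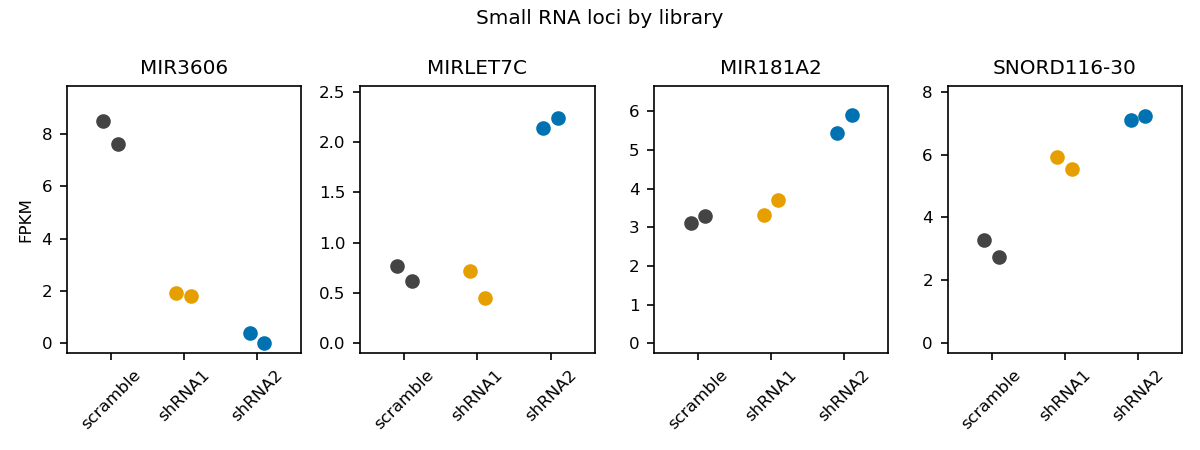
FPKM (linear axis) of 4 small RNA loci, 1 point per library. MIR3606 steps down from scramble over shRNA1 to shRNA2, MIRLET7C and MIR181A2 stand high in the shRNA2 libraries alone, and SNORD116-30 is higher with both hairpins.

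Both hairpins were labelled as acting on the same circular RNA, so the values were set side by side; they share the scramble libraries. With shRNA1, 7 of the same 18119 genes were called (0.0386%): TTR, COL3A1, WNT8B, GJA1, CRABP1, RSPO2 and WLS. All 7 were lower and were also called lower with shRNA2. Among the named genes, CRABP1 (-2.39 with shRNA2 and -2.35 with shRNA1), PLS3 (-0.97 and -0.99), an actin bundling protein, SULF1 (-1.02 and -1.13) and SCGN (0.59 and 0.69) had near-equal values. Others had most of their change with shRNA2: BCL11B (-1.20 and -0.18), SEMA3C (-1.19 and -0.23), EEF1A1 (-1.18 and -0.22), SSTR1 (-0.94 and -0.12), SALL4 (0.54 and 0.07) and ZIC4 (0.62 and 0.12). GJA1 (-0.86 and -1.28), WNT8B (-0.56 and -1.15) and WLS (-0.67 and -0.96) were lower with shRNA1. RSPO2 (-1.68 and -1.41) and RSPO3 (-0.78 and -0.66) had negative values with both hairpins. So had SFRP2 (-0.78 and -0.89), NR2F1 (-1.09 and -0.66) and NR2F2 (-0.89 and -0.73), which like RSPO3 were not called with shRNA1.

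The direct difference between the hairpins was tested 2 ways. In the fit of all 6 libraries 0 genes differed by limma (2921 at an unadjusted p under 0.05). Among the 4 hairpin libraries alone, whose replicates lay closer together, 904 genes differed (4.99%), a fit added after the data were seen. Of the 113 genes called against scramble, 80 differed there, 59 of the lower and 21 of the higher; the 2 comparisons share the shRNA2 libraries, so this share is not independent of the calls. In that fit BCL11B differed by -1.01, SEMA3C by -0.95, EEF1A1 by -0.96, LIN28A by 0.81 and DPPA4 by 0.72 (adjusted p = 0.0415 each). WNT8B and GJA1 differed by 0.59 and 0.42 (adjusted p = 0.0415 and 0.0431). The differences of CRABP1 (-0.04), RSPO2 (-0.26), COL3A1 (-0.50) and TTR (-0.62) did not pass, with adjusted p-values of 0.641, 0.158, 0.0544 and 0.0643. COL3A1 and TTR lay under 1 FPKM in every hairpin library, where the log2(FPKM + 1) scale understates a difference. Mean TTR was 0.0605 FPKM in the shRNA2 group, against 0.641 FPKM in the shRNA1 group. For COL3A1 these means were 0.0625 against 0.507 FPKM. Not passing therefore does not show equal levels of these genes under the 2 hairpins.

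**Figure D5:**
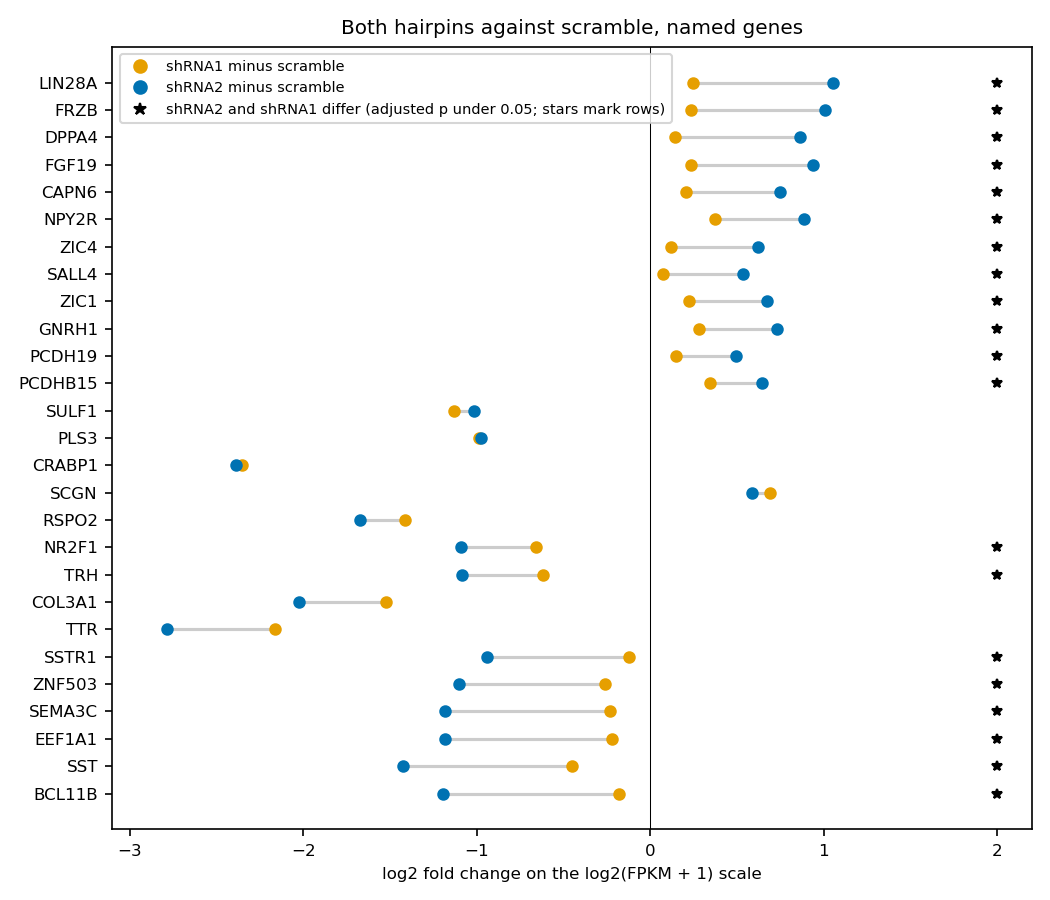
Log2 fold changes against the shared scramble libraries for shRNA1 (orange) and shRNA2 (blue), for the named genes with the largest called changes, ordered by the difference between the hairpins; a star at the right edge marks an adjusted p under 0.05 for that difference in the hairpin libraries alone. The pairs lie together for CRABP1 and PLS3 and far apart for BCL11B and SST.

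Stress and response lists held no calls. None passed among 18 p53 targets (median -0.073, and 0.009 after quantile normalization), 8 interferon and double-stranded RNA response genes (-0.139), 21 genes of the unfolded protein and integrated stress responses (-0.088, and 0.007 after quantile normalization), 9 immediate early genes (-0.136), 23 cholesterol synthesis genes (-0.094) and 20 hypoxia and glycolysis genes (-0.161). MAVS, an adaptor of RNA sensing, was at -0.29 (adjusted p = 0.133), XBP1, a factor of the unfolded protein response, at -0.32 (adjusted p = 0.0849), and the glycolytic gene HK1 at -0.37 (adjusted p = 0.11). Of 31 interferon genes, 9 were under 0.1 FPKM, among them MX1 and OAS1. Median fold changes of protein-coding genes by nuclear chromosome ran from -0.111 on chromosome 20 to -0.076 on chromosome 13. In the 300 bases around the annotated starts (250 before and 50 after), the letters CTTTGAA or CTTTGAT, a motif of the Wnt mediators TCF and LEF, stood on either strand in 2 of 55 lower protein-coding genes with a promoter entry (NR2F1 and RIPOR2) and in 0 of 10 higher ones, against 6.98% of 27305 promoters.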

How the data were processed

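The authors deposited FPKM values, 1 for each symbol in each library, as the file headers name them. The submitters' processing notes list featureCounts 2.0.1, HISAT2 2.1.0, SAMtools 1.9 and Trimmomatic 0.39, and the build GRCh38. Annotation and strand setting were not given in those sources, so reads of overlapping and antisense genes cannot be told apart. RNA was ribosome-depleted, per the labels' protocols. All value columns were mapped to samples. Among the symbols, 29 had the form of dates (21 tested).

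Values were analysed as log2(FPKM + 1) with limma 3.58.1 (R 4.3.3, trend, two-sided, Benjamini-Hochberg over 18119 genes), all 6 libraries in 3 groups. The fit was also run on simulated data that gave each gene the same spread in all groups. Scramble libraries varied more than the hairpin libraries, so the simulation cannot check the assumption of a shared spread. Read depths were recovered from the steps of low FPKM values over exon lengths of GENCODE; 3 reads on 1 kb equal 0.0359 to 0.0643 FPKM, counting error only. Positions, classes and sequences came from RefSeq (GRCh38.p14), which matched 13218 tested symbols. Where RefSeq gave no class, that of GENCODE was used. Figures used Python 3.11.15 and matplotlib 3.10.9.

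Named were RTN4 and PABPC1, the 14 protein-coding calls per direction with the largest change and no overlap, up to 5 called noncoding genes, and up to 4 genes per list by smallest p; a few of these are not reported here. Marker, host and related genes given beside them fall outside this rule. Members, rule and the 46 lists were chosen with earlier results of these data known, and lists were given as counts and medians without a set test. Alternatives covered the pseudocount, filter, scaling, libraries and genes in the fit, weights, a replicate block and leaving out each library.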

Additional observations from a re-analysis of the deposited data

How the results depend on the processing

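The 113 calls (34 higher, 79 lower) depended on the libraries and on the genes tested more than on the fold changes, which reversed for 0 of the 113 under any alternative run. Counts of higher and lower genes were 37 and 223 (260) with a mean of at least 5 FPKM, 43 and 328 (371) for protein-coding genes alone, 46 and 48 with median of ratios scaling, 38 and 37 (75) with quantile normalization, 0 and 0 with no filter, 0 and 1 (1) with the 4 libraries of this comparison alone, and 0 and 5 (5) with group weights. Pseudocounts of 0.1 and 0.5 kept 97 and 112 of the 113. Leaving out 1 library each gave 0 to 2436 calls, 0 to 326 higher and 0 to 2110 lower; the remaining library of a group was then assumed to vary like the others. For shRNA2 against shRNA1 the count of 0 became 47 with at least 5 FPKM, 229 for protein-coding genes, 904 in the hairpin libraries alone and 2334 with group weights. RTN4 passed at -0.325 with at least 5 FPKM (adjusted p = 0.0396) and with protein-coding genes alone (adjusted p = 0.0302). Without a scramble library it was at -0.292 and -0.357, and after quantile normalization at -0.112 (adjusted p = 0.578). With the replicate number as a block, limma gave 0 calls in either direction and for either contrast (2618 at an unadjusted p under 0.05 against scramble; RTN4 adjusted p = 0.218). Same-numbered libraries did not deviate together (correlations of -0.147, -0.00966 and 0.02), so the numbers were not taken to pair the samples. The causes of these shifts were not tested, beyond the fewer genes or libraries that some of the fits hold. Short loci near 1 FPKM rest on few reads, as MIRLET7C did in scramble (3 and 4 reads), which limits their precision. The longer gene NPY2R had about 112 and 225 reads there.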
